A study of Rattus norvegicus with 30 samples.

Results

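The genes examined were those of the transforming growth factor beta (TGF beta) receptors and their SMAD mediators in rat liver, namely Tgfb1, Tgfbr1, Tgfbr2, Tgfbr3, Smad2, Smad3, Smad4 and Smad7. They were chosen by name, and a probe set (a group of short probes on the array that together measure one transcript) was taken where its annotation held 1 of these symbols and no other. This gave 13 of the 31042 probe sets tested, for 7 of the 8 genes, out of 14217 genes that the arrays name. No probe set carried Tgfbr2 alone, so the type II receptor was not analysed here. All 30 animals were female Sprague-Dawley rats, labelled as 10 weeks old, and the RNA came from a piece of the left liver lobe, hybridised to 1 Affymetrix rat array per animal. The 10 control rats were not handled. The 10 rats handled for 1 day and the 10 handled for 4 days were weighed, restrained, given water by oral gavage each day and bled repeatedly from the tail vein, so these procedures were applied together and cannot be told apart. Euthanasia was on day 2 for the controls and the 1-day group and on day 5 for the 4-day group. No unhandled group was euthanised on day 5, so the length of handling and the day of sampling cannot be told apart, and both handled groups were compared with the same control rats.

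TGF beta is a secreted cytokine that binds a complex of type I and type II receptor kinases, which phosphorylates Smad2 and Smad3. These join Smad4, enter the nucleus and alter transcription, and Smad7 is induced in turn and inhibits the receptor. In liver the pathway is known for restraining hepatocyte growth and for driving collagen production by stellate cells after injury.

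Of the 13 probe sets, 1 passed the test after 4 days of handling, where 0.657% of all probe sets did. After 1 day 0 passed, where 0.0902% of all did. The brighter probe set of Tgfbr1, the type I receptor kinase, was called higher in rats handled for 4 days, 1.23-fold above control. This call was near the threshold and was lost under some alternatives, given below. No probe set of Tgfb1, Tgfbr3, Smad2, Smad3, Smad4 or Smad7 passed the test after 1 or 4 days of handling. A probe set was called where limma's Benjamini-Hochberg adjusted p, taken over all 31042 probe sets, was under 0.1. The intensities are linear values that average 1 on every array, fold changes are differences of group means of log2 intensity, and a probe set is called bright or dim by its rank on the array, which is no measure of how much one transcript exceeds another.

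Several facts of the whole series bear on these values. Control rats 1 to 3 stood apart from the other 27 rats over many probe sets, and the difference of each of the 13 probe sets from control is given with and without them. Markers of hepatocytes were high in every rat, with a summed intensity of Alb, Ttr, Apoa1, Cps1 and Tat of 189 to 226 in controls, 194 to 213 after 1 day and 190 to 220 after 4 days. Stellate cell markers (9 of 10 listed genes measured) summed to 7.28 to 9.12 in controls, 7.53 to 9.57 after 1 day and 7.19 to 9.64 after 4 days. Their median sums were 8.15, 8.87 and 8.61 in the same order. Of the 9 log2 differences, 8 were above 0 in each comparison, with medians of 0.15 after 1 day and 0.11 after 4 days. Without control rats 1 to 3 these medians were 0.16 and 0.19. Of these markers, 0 passed the test in either comparison. The sums for the other liver cell types also overlapped between groups. Kupffer cell markers (6 of 8 measured) had a lower median sum after 4 days, 20.2 against 23.2 in controls, with 0 of 6 passing the test. Of the T and NK cell markers (6 of 7 measured), Nkg7, a granule protein of cytotoxic cells, fell after 4 days by 0.42 on the log2 scale (adjusted p = 0.0902), and the other 5 did not pass. The 6 markers did not move together after 4 days, with 3 log2 differences above 0 and a median of -0.0042. Without control rats 1 to 3 this median was -0.15. Of the 6 probe sets, 4 were among the dimmest 40% of all. In whole liver RNA, fewer cells of a type and less RNA per cell cannot be told apart. The Gapdh ratio, taken as the log2 intensity of the array's 3′ Gapdh control minus that of its 5′ control, which reads RNA integrity and labelling, was 0.55 to 0.70 in controls, 0.66 to 0.83 after 1 day and 0.70 to 0.96 after 4 days.

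**Figure D1:**
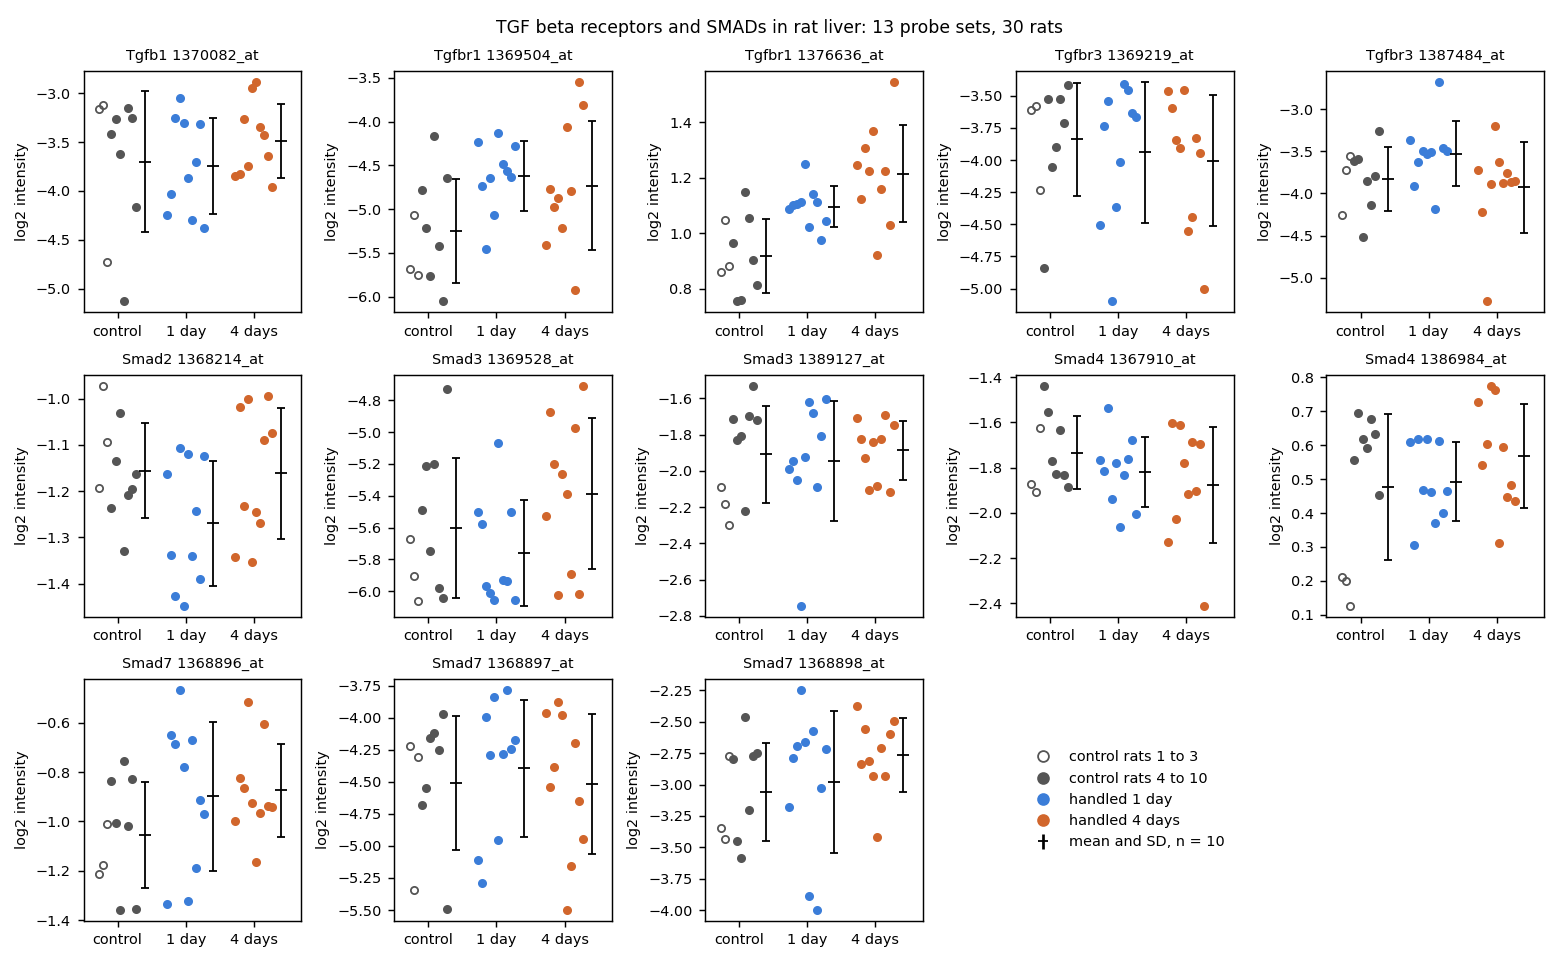
Log2 intensity (vertical axis) of each of the 13 probe sets in each rat, by group, with the group mean and SD (n = 10) and with control rats 1 to 3 set apart by their marker. The Tgfbr1 probe set 1376636_at is the panel in which the rats handled for 4 days lie mostly above the control rats, while in most other panels the groups cover the same range.

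Tgfbr1 was measured by 2 probe sets. The probe set 1376636_at was brighter than 91.4% of all probe sets tested, with an intensity of 1.69 at the lowest, 1.86 at the median and 2.21 at the highest in controls. The same quantities were 1.97, 2.15 and 2.38 after 1 day and 1.89, 2.34 and 2.92 after 4 days. The groups overlapped at their edges, but all 10 rats handled for 1 day and all 10 handled for 4 days lay above the control mean, and 7 of the 10 handled for 4 days lay above every control rat. On the log2 scale the mean was 0.92 ± 0.13 in controls, 1.10 ± 0.073 after 1 day and 1.21 ± 0.17 after 4 days (SD, n = 10 each). The difference from control was 0.30 (SE 0.067) after 4 days, with a 95% confidence interval of 0.16 to 0.43 (1.12-fold to 1.35-fold), and it passed limma's test (adjusted p = 0.0526), at rank 76 of all probe sets by p. After 1 day the difference was 0.18 (SE 0.067, interval 0.039 to 0.31), and it did not pass (adjusted p = 0.407, unadjusted p = 0.0134). The text of the study describes Tgfbr1 as decreased after handling, which is opposite to the direction of the deposited intensities of both probe sets.

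The upstream sequence of Tgfbr1 is shown because this is the gene of the group with a called probe set, a call that was near the threshold. The stretch is the 200 bases that end just before the annotated start of the gene on the plus strand, at chr5:66449148-66449347 of the rat assembly GRCr8, taken from RefSeq. It is written 5′ to 3′, with copies of the GC box GGGCGG on either strand in capitals.
Tgfbr1 upstream: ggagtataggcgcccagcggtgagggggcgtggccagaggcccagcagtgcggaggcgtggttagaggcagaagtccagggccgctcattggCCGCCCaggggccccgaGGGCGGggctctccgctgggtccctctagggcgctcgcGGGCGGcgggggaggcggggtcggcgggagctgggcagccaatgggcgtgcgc
The window held 3 GC boxes, which 4.4% of 33469 windows of the same length before other gene starts matched or exceeded and of which 24.2% held at least 1. It held CCAAT 2 times, a motif found in 28.8% of windows, and it held no TATAAA, found in 9.98%. The SMAD binding motif CAGAC (in 36.6% of windows) and the glucocorticoid half-site AGAACA (in 14.2%) were not in these letters. Each motif was searched on both strands, none of these matches overlapped another motif, and a match is a description of the sequence and not a site shown to be bound.

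The Tgfbr1 call did not rest on control rats 1 to 3 but was near the threshold. Without control rats 1 to 3, whose log2 intensities of 0.86, 1.05 and 0.88 lay within the range of the other 7, the difference after 4 days was again 0.30 (SE 0.075, adjusted p = 0.0770), and after 1 day it was 0.18 (adjusted p = 0.473). When each of the 30 rats was left out in turn, the call held in 29 fits, with adjusted p from 0.035 to 0.101 and a log2 difference from 0.26 to 0.33. It was lost without rat 5 of those handled for 4 days (adjusted p = 0.101). It was also lost in a limma fit of only the 2 groups compared (adjusted p = 0.206) and in the exact Wilcoxon rank-sum test (adjusted p = 0.115). A fit with the replicate numbers as a block lost the call as well, as given below.

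The Gapdh ratio also differed between the groups, with a median of 0.66 in controls, 0.75 in the 1-day group and 0.74 in the 4-day group. All 10 rats handled for 4 days and 7 of 10 handled for 1 day had a ratio above every control rat. With the ratio as a covariate, the Tgfbr1 difference after 4 days was 0.25 (SE 0.086) and no longer passed (adjusted p = 0.456, unadjusted p = 0.0069), in a fit in which 5 of all probe sets passed in place of 204. Since the ratio and the group went together, their parts in the difference cannot be told apart.

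**Figure D2:**
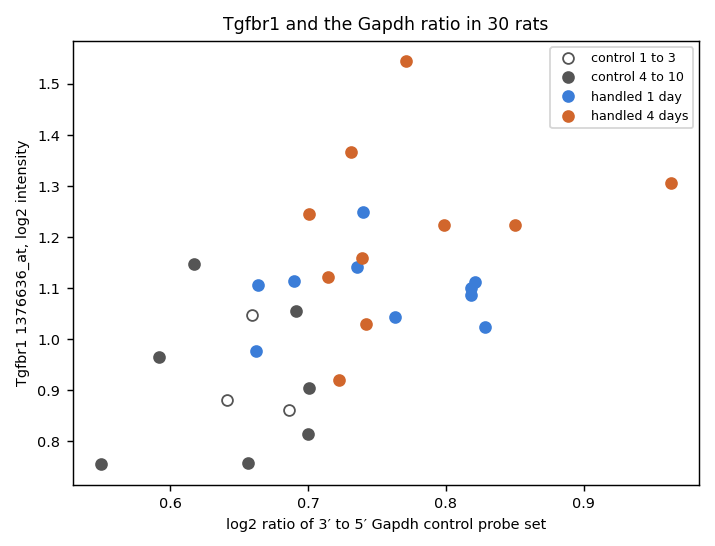
Log2 intensity of the Tgfbr1 probe set 1376636_at (vertical axis) against the Gapdh ratio (3′ over 5′, log2, horizontal axis) in 30 rats, coloured by group. Control rats lie at ratios of 0.55 to 0.70 and log2 intensities of 0.76 to 1.15, and rats handled for 4 days at ratios of 0.70 to 0.96 and log2 intensities of 0.92 to 1.55.

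The second Tgfbr1 probe set, 1369504_at, was dim, brighter than only 18.5% of probe sets. Its intensity at the lowest, median and highest rat was 0.0151, 0.0250 and 0.0555 in controls, 0.0228, 0.0413 and 0.0572 after 1 day and 0.0165, 0.0351 and 0.0857 after 4 days. The groups overlapped over most of their range. The log2 difference from control was 0.63 (SE 0.26) after 1 day and 0.52 (SE 0.26) after 4 days, and neither passed (adjusted p = 0.440 and 0.448). Without control rats 1 to 3 they were 0.53 and 0.42 (SE 0.29, adjusted p = 0.651 and 0.642). Both Tgfbr1 probe sets thus had higher means after handling. Within groups their log2 intensities, as deviations from group means, had a Pearson r of -0.044 over the 27 rats other than control rats 1 to 3.

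Tgfb1, the ligand, was measured by the single probe set 1370082_at, at the 40.9 percentile of brightness. Its intensity at the lowest, median and highest rat was 0.0286, 0.0987 and 0.115 in controls, 0.0482, 0.0726 and 0.121 after 1 day and 0.0641, 0.0866 and 0.136 after 4 days. The widest spread was in the control rats, and the groups overlapped. The log2 difference was -0.045 (SE 0.24) after 1 day and 0.21 (SE 0.24) after 4 days, with adjusted p of 0.970 and 0.793. The values without control rats 1 to 3 were -0.031 and 0.23 (SE 0.25), with adjusted p of 0.986 and 0.791.

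Tgfbr3, or betaglycan, is a coreceptor that presents ligand to the signalling receptors, and its 2 probe sets were both dim. The probe set 1369219_at had a median intensity of 0.0791 in controls (0.0348 to 0.0939), 0.0771 after 1 day (0.0292 to 0.0945) and 0.0680 after 4 days (0.0312 to 0.0911). For 1387484_at the median was 0.0740 in controls (0.0437 to 0.105), 0.0882 after 1 day (0.0549 to 0.157) and 0.0691 after 4 days (0.0258 to 0.109). The ranges of all groups overlapped at both probe sets. The log2 differences were -0.10 and 0.30 after 1 day and -0.16 and -0.099 after 4 days, with adjusted p of 0.655 or more. When control rats 1 to 3 were left out they were -0.088 and 0.30 after 1 day and -0.15 and -0.11 after 4 days, with adjusted p of 0.765 or more. Between the handled groups, 1387484_at was lower after 4 days than after 1 day by a log2 difference of -0.40 (SE 0.19), with an unadjusted p of 0.0451 and an adjusted p of 0.992. Within groups its 2 probe sets had an r of -0.0086 (27 rats).

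Smad2 and Smad3 are the receptor-activated SMADs that carry the TGF beta signal. The Smad2 probe set 1368214_at had an intensity of 0.398, 0.442 and 0.510 at the lowest, median and highest control rat, 0.367, 0.409 and 0.465 after 1 day and 0.392, 0.448 and 0.502 after 4 days. The rats handled for 1 day reached lower, with 5 of 10 below every control rat, but the groups otherwise overlapped. The log2 difference was -0.11 (SE 0.065, adjusted p = 0.612) after 1 day and -0.0059 (SE 0.065, adjusted p = 0.985) after 4 days. The intervals of these differences, -0.25 to 0.019 and -0.14 to 0.13, were the narrowest of the 13 probe sets. Leaving out control rats 1 to 3, the differences were -0.085 and 0.024 (SE 0.070, adjusted p = 0.806 and 0.942), so the sign after 4 days turned.

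For Smad3, the probe set 1389127_at had a median intensity of 0.284 in controls (0.203 to 0.346), 0.262 after 1 day (0.149 to 0.329) and 0.281 after 4 days (0.231 to 0.310). Its log2 difference was -0.036 after 1 day and 0.022 after 4 days (SE 0.12, adjusted p = 0.948 and 0.966). Control rats 1 to 3, at 0.235, 0.220 and 0.203, were in the lower part of the control range, and without them the differences were -0.16 and -0.099, so the sign after 4 days turned, with neither value passing. The other Smad3 probe set, 1369528_at, lay in the dimmest 3% and ran from 0.0150 to 0.0382 over all rats. Its differences were -0.16 and 0.22 (SE 0.18, adjusted p = 0.833 and 0.696), and with control rats 1 to 3 left out they were -0.27 and 0.099 (SE 0.20, adjusted p = 0.766 and 0.907).

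Smad4, the common partner of the receptor-activated SMADs, was the gene of the group in which control rats 1 to 3 stood out. At 1386984_at their intensities were 1.16, 1.15 and 1.09, below those of all other 27 rats (1.24 to 1.71). Over all probe sets tested, control rats 1 to 3 were all below the other 27 rats in 3.03% and all above them in 2.95%, and among the 13 probe sets here this was the case in 1 and 0. The median was 1.49 in all control rats, 1.53 in the 7 others, 1.38 after 1 day and 1.48 after 4 days. The log2 differences from control were 0.017 and 0.092 with all rats (SE 0.080) and -0.11 and -0.035 without control rats 1 to 3 (SE 0.069). The sign of both differences thus rested on these rats, and none of the 4 values passed the test (adjusted p from 0.706 to 0.967). The second Smad4 probe set, 1367910_at, did not set these rats apart, at 0.273, 0.267 and 0.325 against 0.188 to 0.369. Its median was 0.287 in controls, 0.288 after 1 day and 0.279 after 4 days, and its log2 differences of -0.083 and -0.14 (SE 0.091) did not pass (adjusted p = 0.820 and 0.588), nor did those of -0.11 and -0.17 without these rats (SE 0.10, adjusted p = 0.828 and 0.561).

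Smad7, the inhibitory SMAD that TGF beta itself induces, was measured by 3 probe sets. The brightest, 1368896_at, had an intensity of 0.390, 0.495 and 0.593 at the lowest, median and highest control rat, 0.396, 0.556 and 0.723 after 1 day and 0.446, 0.525 and 0.699 after 4 days. The highest rats of each handled group lay above the control range, 4 of 10 after 1 day and 2 of 10 after 4 days. Its log2 difference was 0.16 after 1 day and 0.18 after 4 days (SE 0.11), with 9 of 10 rats handled for 4 days above the control mean, and it did not pass (adjusted p = 0.688 and 0.548). The probe set 1368898_at had medians of 0.126, 0.148 and 0.148 in the same order, and differences of 0.078 and 0.29 (SE 0.19, adjusted p = 0.928 and 0.591). The dim 1368897_at had medians of 0.0515, 0.0521 and 0.0454, and differences of 0.12 and -0.0077 (SE 0.23, adjusted p = 0.916 and 0.994). With control rats 1 to 3 left out, the differences after 1 and 4 days were 0.12 and 0.15 for 1368896_at, 0.024 and 0.24 for 1368898_at and 0.066 and -0.057 for 1368897_at, with adjusted p of 0.714 or more. Within groups the Smad7 probe sets had an r of 0.63 for 1368896_at with 1368898_at, 0.42 for 1368896_at with 1368897_at and 0.12 for the remaining pair (27 rats), and the pairs of Smad3 and Smad4 had an r of 0.20 and 0.30.

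Counted together, 0 of the 13 probe sets passed after 1 day of handling, where 0.0902% of all probe sets did, and 1 of 13 passed after 4 days, where 0.657% did. Without control rats 1 to 3 the counts were again 0 and 1, beside 0.329% and 0.828% of all probe sets. At an unadjusted p under 0.05 they were 2 of 13 after 1 day, both of Tgfbr1, against 9.33% of all probe sets, and 1 of 13 after 4 days, against 11.3%. After 1 day, 7 of the 13 differences were above 0 with a median of 0.017, and after 4 days 8 were above 0 with a median of 0.092, beside medians over all probe sets of -0.0035 and 0.0022 (log2) and shares above 0 of 49.2% and 50.5%. Without control rats 1 to 3 the medians of the 13 were -0.031 and 0.024. Between 4 days and 1 day of handling, 0 of 13 passed limma's test, as did 0% of all probe sets. At an unadjusted p under 0.05 that comparison gave 1 of 13, against 5% of all. For Tgfbr1 1376636_at the difference between the handled groups was 0.12 (SE 0.067, adjusted p = 0.992), so the call after 4 days and its absence after 1 day are not shown to differ. By exact Wilcoxon rank-sum tests 0 of 13 passed in each comparison at the same adjusted p, where 0.0902% of all probe sets passed after 1 day, 0.499% after 4 days and 0% between the handled groups.

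**Figure D3:**
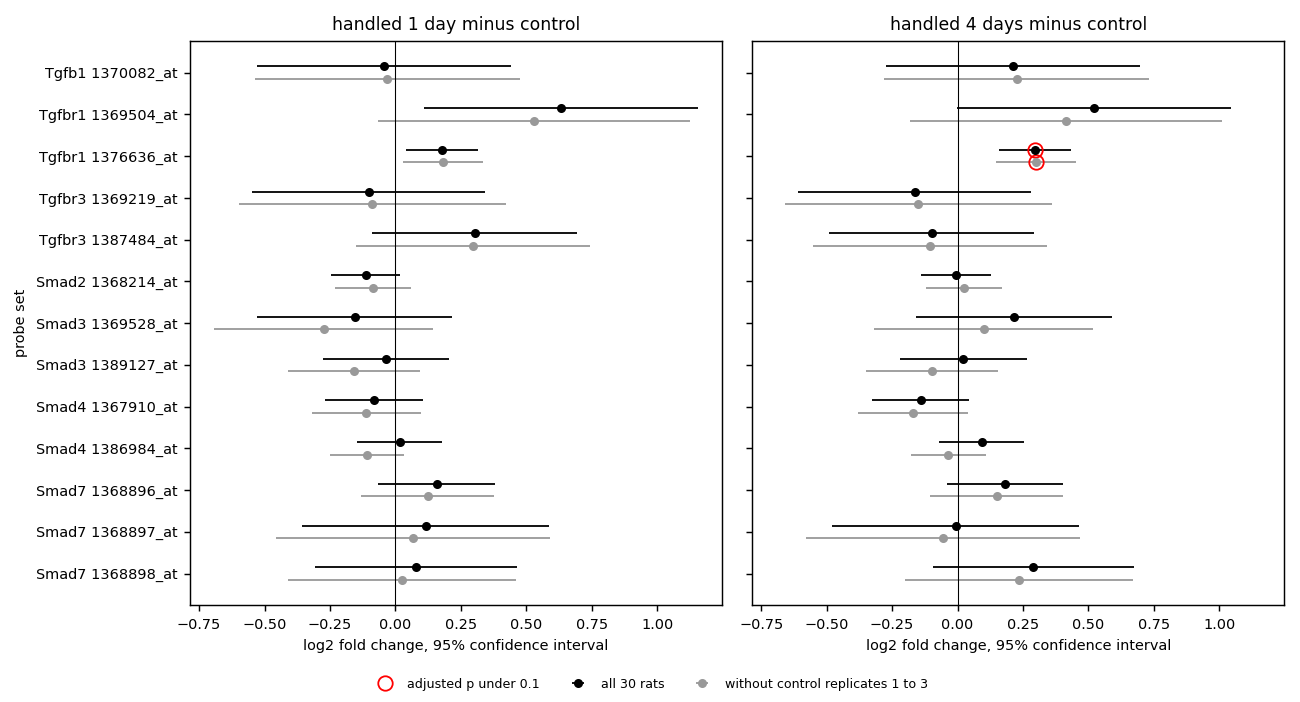
Log2 fold change against control (horizontal axis) with its 95% confidence interval for each of the 13 probe sets (vertical axis), after 1 day (left) and 4 days (right) of handling, with all 30 rats in black and without control rats 1 to 3 in grey. A red ring marks an adjusted p under 0.1, which Tgfbr1 1376636_at reached after 4 days in both fits.

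The members did not form a single pattern across rats. Over the 71 pairs of probe sets of different genes, the Pearson r of deviations from group means had a median of -0.075 and ran from -0.53 to 0.65 (27 rats). These values share arrays and their scaling, and are given as a description. Pairs of the same gene ran from -0.044 for Tgfbr1 and -0.0086 for Tgfbr3 to 0.63 for 1 pair of Smad7. A low r between genes therefore cannot show that they vary apart. The highest was between Smad4 1386984_at and the dim Smad7 1368897_at. For the brightest probe set of each gene, the other genes whose pattern was most like it were sought among about 12131 to 12133 probe sets with 1 symbol and above-median brightness. For Tgfbr1 they were Arid4a (r = 0.72) and Cebpg (0.68), for Smad2 Amacr (0.78) and Dnttip2 (0.74), for Smad4 Gpr107 (0.74) and Eri2 (0.72), and for Smad7 G0s2 (0.78) and Pik3ca (0.64). For Smad3 they were Lrig1 (0.67) and Klhl24 (0.67), for Tgfb1 Trip11 (0.70) and Scarb1 (0.66), and for the dim Tgfbr3 Dennd4c (0.67) and Rpl26l1 (0.67). No member of the group was among these nearest genes of another member.

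The rest of the pathway was described by lists of 93 genes, of which 85 were measured, with the brightest probe set standing for a gene. After 1 day of handling 0 of 85 rose and 0 fell, and 5 (5.88%) had an unadjusted p under 0.05, against 9.33% of all probe sets. After 4 days 0 rose and 1 fell, and 12 (14.1%) had an unadjusted p under 0.05, 8 higher and 4 lower, against 11.3% of all. The median log2 difference of the 85 was 0.034 after 1 day and 0.020 after 4 days.

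Of the 21 measured target genes, 5 were higher and 1 lower after 4 days at an unadjusted limma p under 0.05, which 11.3% of all probe sets reached. Their median log2 difference after 4 days was 0.026, with 11 above 0. Timp1, which encodes an inhibitor of matrix metalloproteinases and is induced by TGF beta, was the gene that fell. Its log2 intensity was -1.49 ± 0.30 in controls, -1.58 ± 0.20 after 1 day and -2.00 ± 0.35 after 4 days (SD, n = 10 each). It fell by 0.51 after 4 days (SE 0.13, adjusted p = 0.0902), and without control rats 1 to 3 the difference was -0.42 and did not pass (adjusted p = 0.206). Klf10, an early target of TGF beta that encodes a zinc finger repressor, was at 0.97 ± 0.29 in controls, 1.39 ± 0.36 after 1 day and 1.56 ± 0.42 after 4 days. Its differences of 0.42 (SE 0.16) and 0.58 (SE 0.16) did not pass (adjusted p = 0.405 and 0.112). Id2, an inhibitor of helix-loop-helix transcription factors, had a difference of 0.39 (SE 0.13) after 4 days (adjusted p = 0.225). When control rats 1 to 3 were left out, the differences after 4 days were 0.55 for Klf10 and 0.42 for Id2, and neither passed (adjusted p = 0.196 and 0.197). The difference of Timp1 from control thus had the opposite sign to that of Klf10 and Id2. TGF beta can raise or lower a target gene, so these signs are no measure of the activity of the pathway.

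The cell cycle inhibitor Cdkn1a and the activin subunit Inhba, both chosen after their values were seen, depended on control rats 1 to 3. With all rats Cdkn1a differed by 1.42 after 1 day and 1.5 after 4 days (SE 0.59, adjusted p = 0.452 and 0.302), and without them it rose by 2.23 after 4 days (SE 0.59, adjusted p = 0.0962). Inhba differed by 0.59 after 4 days (SE 0.34, adjusted p = 0.525), and without these rats it rose by 1.23 (SE 0.26, adjusted p = 0.0335). The spread of both was wide in controls, with an SD of 1.46 for Cdkn1a and 1.12 for Inhba on the log2 scale.

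Among the other ligands, Gdf15, a stress-responsive member of the family, differed by -1.03 after 4 days (SE 0.35, adjusted p = 0.232), which became -0.50 without control rats 1 to 3 (adjusted p = 0.601). Inha, the inhibin alpha subunit, differed by -0.44 after 4 days (SE 0.16, adjusted p = 0.245), at a dim probe set (20.7 percentile of brightness). Of the 10 TGF beta and activin ligands and the 6 measured genes listed under BMP ligands, 0 passed in either comparison. In the BMP list the smallest p were those of Bmp1 (0.17 after 4 days, adjusted p = 0.539) and Bmp4 (-0.24 after 1 day, adjusted p = 0.630). Despite its name and its place in this list, Bmp1 encodes a metalloproteinase and not a ligand. The Bmp4 difference was -0.049 without control rats 1 to 3.

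Of the 7 other type I and type II receptors measured, 0 passed, with 6 differences above 0 after 1 day and 5 after 4 days. The median of the 7 was 0.11 after 1 day and 0.17 after 4 days, and 0.030 and 0.051 without control rats 1 to 3. The smallest p were those of the BMP receptor Bmpr1a (0.18 after 4 days, SE 0.068, adjusted p = 0.268) and the activin receptor Acvr2a (0.17, SE 0.082, adjusted p = 0.424), and without control rats 1 to 3 these were 0.12 and 0.051. Of 17 coreceptors and extracellular regulators 0 passed. There the smallest p, both after 1 day, were those of the endothelial coreceptor Eng (-0.22, adjusted p = 0.482) and the decoy receptor Bambi (-0.32, adjusted p = 0.586), which were -0.11 and -0.19 without control rats 1 to 3. Of the 4 other SMADs 0 passed, Smad6, an inhibitory SMAD, being at -0.22 (adjusted p = 0.521) and Smad5, a BMP-activated SMAD, at -0.064 (adjusted p = 0.762) after 1 day. Of 22 intracellular regulators 0 passed, the deubiquitinase Usp11 being at -0.19 (adjusted p = 0.387) and the ubiquitin ligase Smurf2 at 0.11 (adjusted p = 0.479) after 4 days. The Smurf2 difference was 0.054 without control rats 1 to 3.

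**Figure D4:**
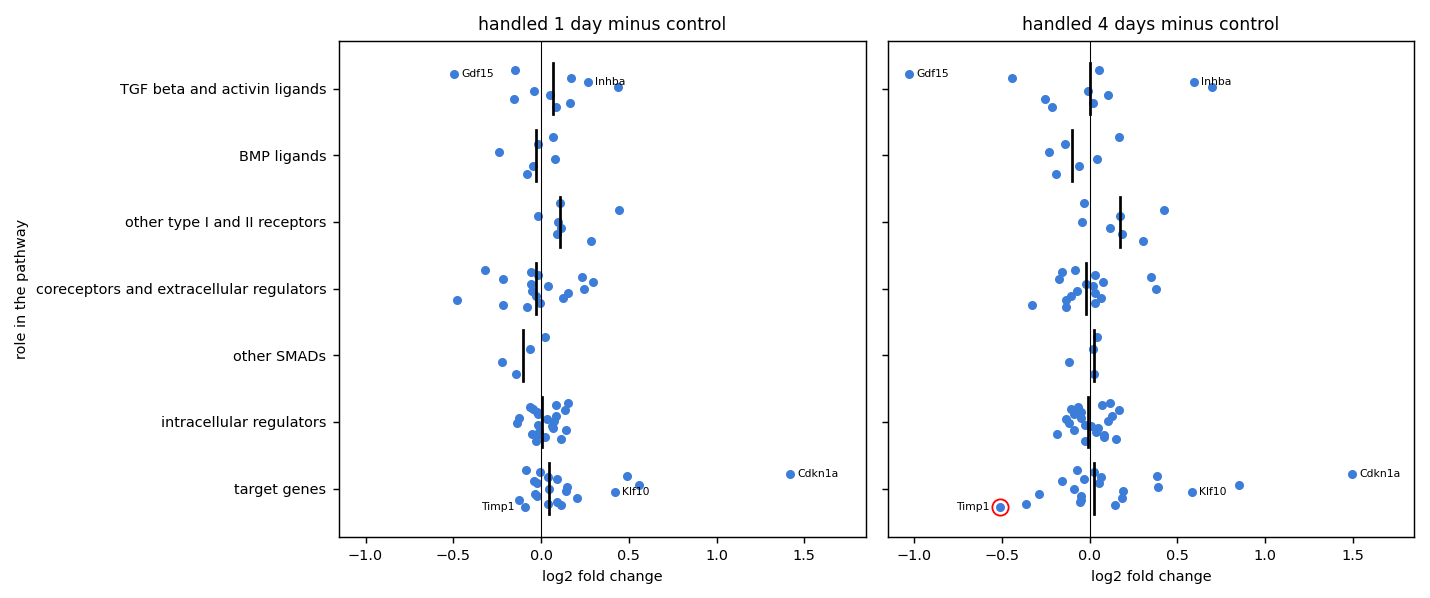
Log2 fold change against control (horizontal axis) of each measured gene of the pathway lists, ordered by role (vertical axis), after 1 day (left) and 4 days (right) of handling. Each point is a gene, black bars are list medians, and the red ring marks the gene with an adjusted p under 0.1, Timp1 after 4 days at -0.51.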

How the data were processed

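RNA from the left liver lobe of 30 rats was hybridised to Affymetrix rat arrays, which the authors processed in Rosetta Resolver. They deposited linear intensities whose mean is 1 on every array, as the values show. The step that made this scaling is not given in the sources used here. Apart from 57 Affymetrix control probe sets, all were tested (31042), of which 20826 carry 1 gene symbol, 436 several and 9780 none. Array medians were 0.118 to 0.125, no 2 arrays were identical (r from 0.946 to 0.976), and precision is limited by the number of arrays.

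Log2 intensities, with no offset, of all 3 groups were fitted together with limma 3.58.1 (two-sided moderated tests from lmFit and eBayes) under R 4.3.3, with Benjamini-Hochberg adjustment over all tested probe sets. The step was tested on simulated data. Rats were grouped by the labels. The rats of the 3 groups are different animals, and replicate numbers were not taken to pair them. All probe sets of a member are named. Of each pathway list, the called genes and the 2 genes with the smallest p are named, and for likeness the 2 genes with the highest r. The members and lists were chosen with earlier results of these data known. Alternatives were offsets of 0.05 and 1, quantile and cyclic loess normalization, an intensity trend in eBayes, array weights, a replicate block, the Gapdh ratio as a covariate, leaving out the dimmest 40% of probe sets, control rats 1 to 3 or each rat in turn, fits of only the 2 groups compared, the methods' t-test, exact Wilcoxon rank-sum tests, and thresholds of 0.05 (adjusted) and 0.001 (unadjusted). The study's text mentions samples that stood apart without naming them, and they are taken here to be control rats 1 to 3. The promoter windows are from a RefSeq table of GRCr8. Plots were made with matplotlib 3.10.9 under Python 3.11.15.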

Additional observations from a re-analysis of the deposited data

Results flagged for a closer look

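In 3 of 39 checks (13 probe sets in 3 groups) the lowest rat was far from the others of its group by Dixon's criterion, where chance gives about 1 in 20. The Tgfbr3 probe set 1387484_at was at a log2 intensity of -5.28 in rat 3 of those handled for 4 days, with the next rat at -4.22. The Smad3 probe set 1389127_at was at -2.74 in rat 4 of those handled for 1 day, with the next at -2.09. The Smad7 probe set 1368898_at was at -3.42 in rat 6 of those handled for 4 days, with the next at -2.93. The cause of these values was not tested.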

How the results depend on the processing

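After 4 days of handling, the count of 1 called probe set of 13 (Tgfbr1 1376636_at) was the same under 10 alternatives and 0 with the replicate block (adjusted p = 0.114), the Gapdh ratio as a covariate (0.456), a fit of only the 2 groups compared (0.206), the exact rank-sum test (0.115) and an adjusted p under 0.05. Without 1 rat at a time it was 0 to 1, and 0 in the other comparisons. The count of all probe sets called after 4 days was 204, and was 346 with an offset of 0.05, 467 with an offset of 1, 370 with an intensity trend, 490 without the dimmest 40%, 85 with the replicate block, 70 at an adjusted p under 0.05, 27 with only the 2 groups and 5 with the Gapdh covariate. After 1 day it was 28, and was 45, 127, 69, 113, 2, 1, 1 and 0 in the same order, 55 with the methods' t-test, 144 at an unadjusted p under 0.001 and 102 without control rats 1 to 3. The labels give the rats no shared litter, batch or day, and the replicate numbers were not taken to pair them. Of 30 pairs of the same number, 1 had an r over 0.1 (-0.038 to 0.12), a cut-off that cannot show that the numbers share nothing. The median r of these pairs was 0.047, against -0.0098 for different numbers. Of 60 best matches among 10 candidates, 24 had the own number, more than an even spread over the candidates would give. The numbers may thus share something, which the design does not give. The cause of the lost call was not tested.

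The sign of 30 uncalled log2 differences of the 13 probe sets turned. With the Gapdh covariate these were Tgfb1 at 0.051 and Smad4 1367910_at at 0.027 after 1 day, and Tgfbr3 1387484_at at 0.18, Smad3 1389127_at at -0.058 and Smad7 1368897_at at 0.089 after 4 days. Without control rats 1 to 3 they were Smad4 1386984_at at -0.11 after 1 day and -0.035 after 4 days, and after 4 days Smad2 at 0.024 and Smad3 1389127_at at -0.099. With array weights they were Smad4 1386984_at at -0.051 after 1 day, and Smad2 at 0.011 and Smad3 1389127_at at -0.034 after 4 days. Smad2 after 4 days was also at 0.011 with quantile and 0.0045 with loess normalization. With an offset of 1, Smad7 1368897_at was at 0.00016 after 4 days and Tgfbr1 1369504_at at 0.00026 between the handled groups. Leaving out 1 rat at a time gave, after 1 day, ranges of -0.20 to 0.025 for Tgfb1, -0.21 to 0.027 for Tgfbr3 1369219_at, -0.080 to 0.052 for Smad3 1389127_at, -0.022 to 0.041 for Smad4 1386984_at and -0.0028 to 0.19 for Smad7 1368898_at. After 4 days they were -0.18 to 0.051 for Tgfbr3 1387484_at, -0.025 to 0.015 for Smad2, -0.021 to 0.064 for Smad3 1389127_at and -0.12 to 0.10 for Smad7 1368897_at. Between the handled groups they were -0.25 to 0.018 for Tgfbr1 1369504_at, -0.19 to 0.048 for Tgfbr3 1369219_at, -0.030 to 0.097 for Smad3 1389127_at, -0.089 to 0.00064 for Smad4 1367910_at and -0.024 to 0.073 for Smad7 1368896_at. Of the 13 probe sets, 5 were among the dimmest 40% of all, where the signal limits the measurement.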
